A study of Mus musculus with 11 samples.

Results

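The gene set holds 10 genes of 20389 rows in the deposited table of unique molecular identifiers (UMIs, random tags that mark each captured RNA molecule). They encode cytochrome c and subunits of cytochrome c oxidase, and were taken by gene symbol: the testis isoforms Cox6b2, Cox7b2, Cox8c and Cyct, their general partners Cox6b1, Cox7b, Cox8a and Cycs, and the subunits Cox4i1 and Cox7a2, which have no testis partner in the set. All 10 passed the filter on low counts. Single cells came from the testes of 3 adult Dazl-GFP reporter mice, in which green fluorescent protein marks cells that express the germ cell gene Dazl; strain and treatment are not given in the sources used here. Live GFP-positive cells were sorted into plates and their RNA was tagged at the 3′ end. Mouse 1 gave 8 libraries by CEL-Seq1, mouse 2 gave 1 and mouse 3 gave 2 by CEL-Seq2, and for mouse 3 a gate sort gave 1 library and an index sort the other, while the rest were index sorted. Stages of germ cells were compared inside each animal, so the replicate is the mouse (n = 3), and the protocol of mouse 1 cannot be told apart from the animal.

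Cytochrome c oxidase, or complex IV, is the last enzyme of the mitochondrial respiratory chain and passes electrons from cytochrome c to oxygen. Its catalytic core is encoded by the mitochondrial genome, and the smaller subunits around the core are encoded in the nucleus, several of them by more than 1 gene. Cytochrome c carries electrons from complex III to complex IV, and when released from mitochondria it starts apoptosis through Apaf1 and caspase 9. Male germ cells are known for isoforms of cytochrome c and of complex IV subunits that other tissues lack or hardly express.

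Cytochrome c is shown first because its isoforms are the most alike in sequence. The coding parts of Cyct and Cycs each spanned 315 bases without a stop codon in the GENCODE M21 annotation of GRCm38, aligned without a gap and shared 240 bases (76.2% identity). The opening 150 bases of each, with the 30 bases that differ in capitals, read as follows.
Cyct: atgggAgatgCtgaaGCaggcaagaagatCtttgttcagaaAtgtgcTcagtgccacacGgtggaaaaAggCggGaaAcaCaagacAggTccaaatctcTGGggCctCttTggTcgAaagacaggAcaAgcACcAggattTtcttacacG
Cycs: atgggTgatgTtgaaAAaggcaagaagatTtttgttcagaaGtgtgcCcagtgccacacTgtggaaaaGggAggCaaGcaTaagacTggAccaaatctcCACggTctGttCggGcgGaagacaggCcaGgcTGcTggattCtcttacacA
The other pairs were less alike over their aligned coding bases, with 64.2% identity for Cox6b2 and Cox6b1, 65.4% for Cox7b2 and Cox7b, and 65.2% for Cox8c and Cox8a. No pair shared a coding stretch of 25 bases. None of the 50-base stretches in the last 400 bases of the 10 transcripts was found in a transcript of another annotated gene. The search took 1 transcript per member and exact matches alone. It did not cover other 3′ ends of a gene, copies with mismatches or copies outside the annotation. It thus cannot show that every read was assignable to 1 member. The mapping and counting rules of the authors are not given beyond the aligner.

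The genes lie apart from each other. By the same annotation Cox6b2 is at chr7:4751792-4753094 and Cox6b1 at chr7:30616861-30626151, Cox7b2 at chr5:71442824-71548205 and Cox7b at chrX:106015700-106022450. Cox8c is at chr12:102899316-102900526 and Cox8a at chr19:7215153-7217616, Cyct at chr2:76353942-76360450 and Cycs at chr6:50562563-50566538. Cox4i1 is at chr8:120668222-120674207 and Cox7a2 at chr9:79755361-79759878. Cox7b is the member on the X chromosome, which is silenced in pachytene spermatocytes.

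RefSeq promoter windows of GRCm38.p6, 250 bases before to 50 after the start site, matched 8 of the 10 members. The windows were searched on both strands for the NRF1 site (a repeated GCGC around a pair of free bases, bound by a regulator of respiratory chain genes), CCGGAAG (GABP, another such regulator), TGACGTCA (the cyclic AMP response element, CRE), its core TGACG, which the full element holds on each strand, and CCGTT (the MYB core). Of 32851 windows of this length, 6.23% held the NRF1 letters, 8.86% the GABP letters, 1.79% the full CRE, 20.8% the CRE core and 17.4% the MYB core. The 180 bases before the start are printed for 3 pairs whose members moved in opposite directions, with matches to the GABP letters and the CRE core in capitals.
Cox6b2 (chr7:4753095-4753274, minus strand): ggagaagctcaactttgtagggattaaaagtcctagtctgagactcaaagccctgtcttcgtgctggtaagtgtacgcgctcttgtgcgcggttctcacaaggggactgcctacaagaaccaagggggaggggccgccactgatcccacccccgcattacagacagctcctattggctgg
Cox6b1 (chr7:30626115-30626294, minus strand): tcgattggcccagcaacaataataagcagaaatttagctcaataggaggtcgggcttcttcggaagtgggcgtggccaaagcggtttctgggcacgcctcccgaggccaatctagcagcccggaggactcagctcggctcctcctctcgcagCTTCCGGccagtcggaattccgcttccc
Cox7b2 (chr5:71548206-71548385, minus strand): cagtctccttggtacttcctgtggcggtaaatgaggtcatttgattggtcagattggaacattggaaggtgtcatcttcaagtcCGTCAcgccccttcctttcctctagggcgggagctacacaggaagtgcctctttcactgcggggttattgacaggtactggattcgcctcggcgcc
Cox7b (chrX:106015520-106015699, plus strand): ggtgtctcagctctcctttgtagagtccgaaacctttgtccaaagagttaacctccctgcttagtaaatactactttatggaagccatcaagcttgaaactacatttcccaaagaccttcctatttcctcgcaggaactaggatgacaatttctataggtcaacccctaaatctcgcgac
Cyct (chr2:76360454-76360633, minus strand): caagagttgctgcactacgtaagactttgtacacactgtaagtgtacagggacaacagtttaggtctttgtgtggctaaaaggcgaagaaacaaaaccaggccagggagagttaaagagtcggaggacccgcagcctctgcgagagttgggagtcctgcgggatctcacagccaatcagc
Cycs (chr6:50566570-50566749, minus strand): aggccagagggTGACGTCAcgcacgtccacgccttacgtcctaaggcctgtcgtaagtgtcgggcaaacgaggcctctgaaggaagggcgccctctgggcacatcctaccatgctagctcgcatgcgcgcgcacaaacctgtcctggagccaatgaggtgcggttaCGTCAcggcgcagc
Of the testis isoforms with a window, Cox7b2 held a CRE core at bases -96 to -92 from the start, and Cox6b2 and Cyct held none of the letters searched. Among the general isoforms, Cox6b1 held the GABP letters at -28 to -22 and, before the printed stretch, a CRE core at -212 to -208, and Cycs held the full CRE at -169 to -162 and a further core at -14 to -10. Cox8a held the GABP letters in 2 places and a CRE core at -21 to -17, and Cox7b and Cox7a2 held none of the letters. The NRF1 and MYB letters were found in no window of a member. Only exact matches were sought, so a site that departs from these letters, in Cycs or elsewhere, would be missed. The Cycs window held 32 CG dinucleotides, that of Cox8a 19 and that of Cox6b1 17, against 10 in Cox6b2, 10 in Cox7b2, 8 in Cyct and 5 in Cox7b. The median of all windows was 7.

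Wells with at least 1000 UMIs were clustered on genes of the odd-numbered autosomes, without the members and the genes of the respiratory chain and metabolism lists, and 1224 wells fell into 12 stages ordered by pseudotime. Stage 1 was like undifferentiated spermatogonia, stages 2 and 3 like differentiating spermatogonia, stages 5 to 9 like leptotene and zygotene spermatocytes and stages 10 to 12 like pachytene spermatocytes by their markers, while stage 4 (led by Esx1, Tex11 and Rec8 among others) stayed unnamed. For every 100 UMIs of the even-numbered autosomes, stage 1 held 5.89 X-linked UMIs, stage 7 held 7.52 and stage 8 held 4.63. Stage 9 held 0.895, stage 10 held 0.548 and stage 12 held 0.476, so stage 9 already carried little X-linked RNA, as the pachytene-like stages did. The name of stage 9 is thus uncertain. That of stage 5 is uncertain too, since Stra8, on the list of preleptotene markers, was among its leading genes. UMIs were summed over the wells of each mouse and stage, which gave 36 sums of 13 to 55 wells and 101125 to 4069417 UMIs. Levels are given in CPM, the UMIs of a gene per 1000000 UMIs of these totals. UMIs per spike-in (ERCC) UMI, relative to stage 1 on the log2 scale, stood at -1.99 at stage 7 and at 1.71 at stage 12, so a level in CPM and an amount per well differ. All 12 pachytene markers were called higher at stage 12, and 5 of 6 tested markers of undifferentiated spermatogonia lower, with Id4 higher. Some of these markers, such as Piwil1 and Zbtb16, took part in the staging. The marker lists also named the stages, and the list for undifferentiated spermatogonia set the start of the order. These counts are therefore no independent check of the stages. Of 6 tested Sertoli markers 5 were called lower, and the 8 markers summed to 306 to 341 CPM in stage 1, 351 to 1010 in stage 5 and 21.2 to 61.9 in stage 12 over the 3 mice, with no marker at 0. Clu was among the leading genes of stage 5. The part of this RNA in the results was not tested. The 1 erythroid marker in the table had no UMI at stages 1, 5 or 12, and 3 immune markers summed to at most 1.06 CPM there. At these stages Leydig markers summed to at most 26.5 CPM, peritubular myoid markers to 14.5 and endothelial markers to 15.6. The 8 spermatid markers summed to 15.5 to 60.3 CPM in stage 1 and 75.6 to 125 in stage 5. In stage 12 they summed to 15.5 to 67.9 CPM, and the part of spermatid RNA in the results was not tested.

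All 4 testis isoforms rose from stage 1 to stage 12 and all 4 general partners fell. In the edgeR quasi-likelihood test over 11347 genes with Benjamini-Hochberg adjustment (called at an adjusted p under 0.05), 6 of the 10 members were called higher, namely the testis isoforms, Cox7a2 and Cox4i1, and the 4 general isoforms were called lower. Of all genes tested, 39% were called higher and 36.3% lower, and of the genes that took no part in the staging 40.5% and 35.6%. The median log2 fold change of all genes was 0.08. Of all calls 51.7% were higher, against 43.6% with median-ratio factors, 39.8% with UMI totals alone and 76.0% per spike-in UMI. The counts of members, and the lack of overlap between mice given below, are thus to be read against a background in which most genes changed. The share of all genes without such overlap is not given here, so lack of overlap in a member is not shown to be unusual. The sizes of the changes are given below by pair.

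**Figure D1:**
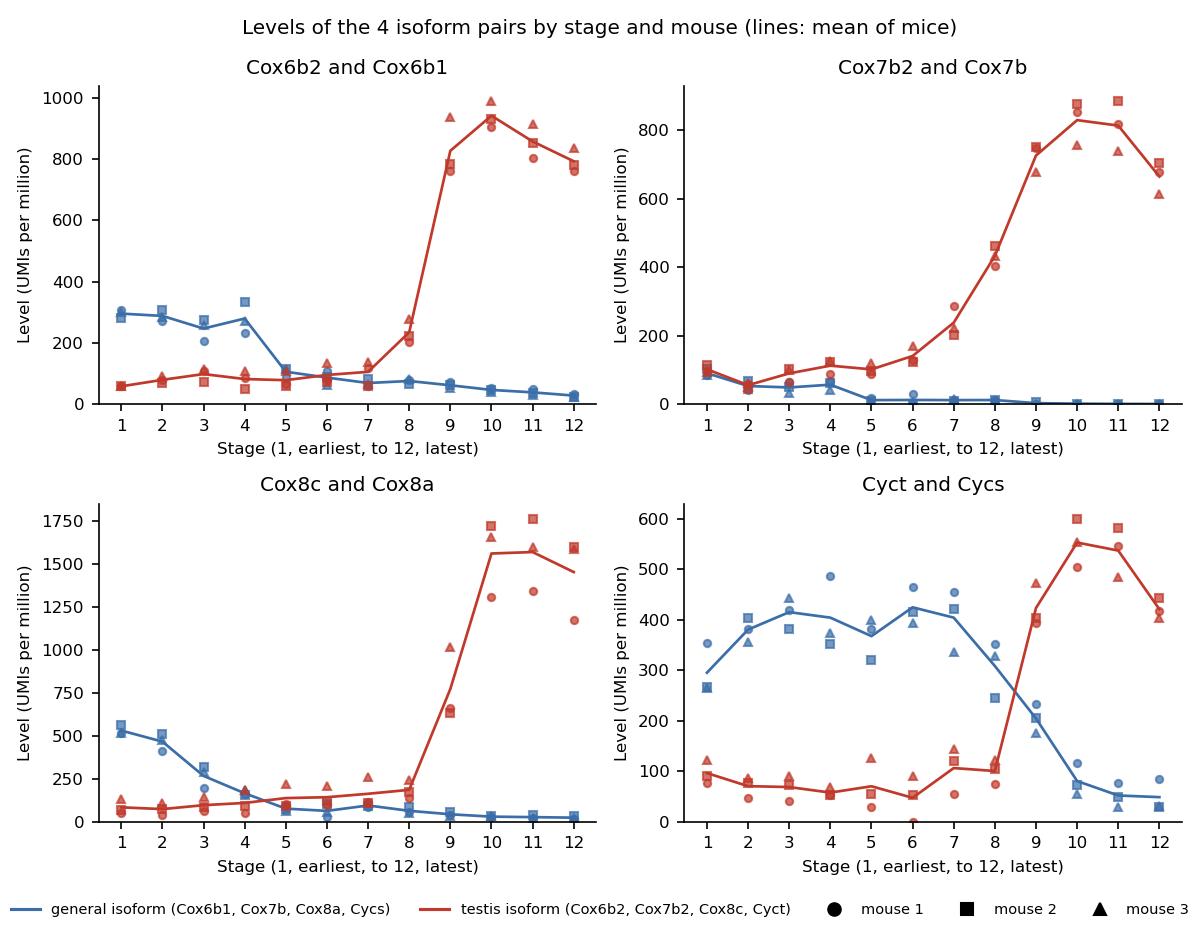
Levels in CPM (y axis, linear) of the general (blue) and testis (red) isoform of each pair at stages 1 to 12 (x axis), with 1 symbol per mouse and lines through the means of 3 mice. Cox6b1 and Cox8a have dropped by stage 5 and their testis partners climb at stages 8 to 10, whereas Cycs stays at 245.4 CPM or more in every mouse up to stage 8 and crosses Cyct between stages 8 and 9.

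Cox6b2 and Cox6b1 encode the isoforms of subunit 6B, which lies on the intermembrane side of the enzyme near the cytochrome c binding site. Cox6b2 stood at 58.1, 57.7 and 57.4 CPM at stage 1 and at 761.0, 782.0 and 837.7 CPM at stage 12 in mice 1, 2 and 3. No mouse overlapped between the stages, and the fitted log2 fold change was 4.28 ± 0.19 (SE; adjusted p = 4.37e-21). Cox6b1 went from 305.9, 280.1 and 300.5 CPM to 34.0, 24.4 and 24.1 CPM, again without overlap, with a log2 fold change of -2.94 ± 0.16 (adjusted p = 7.76e-19). Cox6b2 made up 16.4% ± 0.622 (SD, n = 3) of the UMIs of the pair at stage 1 and 96.6% ± 0.8 at stage 12. The log2 ratio of Cox6b2 to Cox6b1 rose by 6.86, 7.23 and 7.49 in the 3 mice.

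Cox7b2 and Cox7b encode subunit 7B, a small membrane-spanning subunit. Cox7b2 was at 96.8, 115.3 and 92.4 CPM at stage 1 and at 676.6, 703.5 and 614.1 CPM at stage 12, a log2 fold change of 3.20 ± 0.16 (adjusted p = 7.07e-20) with no overlap between the mice of the stages. Cox7b was at 83.9, 101.6 and 84.6 CPM at stage 1, from 189 UMIs, and at 0 in every mouse at stage 12. The mean log2 ratio of this pair rose by 11.46 ± 1.10 (SD, n = 3), a value that depends on the 0.5 added to the UMIs of each gene because Cox7b was at 0. Taken against a floor of 3 UMIs over the group, Cox7b was at least 249-fold lower in CPM and at least 62.9-fold lower per spike-in UMI (adjusted p = 2.55e-16). At stage 1 Cox7b2 made up 53.0% ± 0.703 of the UMIs of its pair, a larger share than the other testis isoforms had. Its partner Cox7b stood at a mean of 90.0 CPM there, against 295.5 for Cox6b1, 531.5 for Cox8a and 295.2 for Cycs. Cox7b2 itself, at 101.5 CPM, was near Cyct (96.5) and Cox8c (84.7) and above Cox6b2 (57.7).

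Cox8c and Cox8a encode subunit 8, among the smallest of the enzyme. Cox8c was at 50.3, 68.7 and 135.2 CPM at stage 1 and at 1177, 1598 and 1586 CPM at stage 12, with the largest fitted rise of the 10 members, 4.60 ± 0.22 (adjusted p = 4.38e-20). By this value Cox8c ranked 375 of the 11347 genes from the highest. Cox8a went from 516.2, 563.0 and 515.4 CPM to 17.7, 32.9 and 23.1 CPM, a log2 fold change of -4.05 ± 0.18 (adjusted p = 2.81e-21). The share of Cox8c in the pair was 13.5% ± 6.37 at stage 1 and 98.4% ± 0.324 at stage 12. Mouse 1 had the lowest Cox8c at both ends. It is also the mouse with 256 possible UMIs, read from the authors' table of transcripts, which matches a correction of the UMI counts for collisions, against 4096 in mice 2 and 3. Single wells held up to 200 Cox8c UMIs in mouse 1, a level at which collisions lower the count. At stage 1 mouse 1 held a mean of 1.70 Cox8c UMIs per well, far below that level. The cause of the low Cox8c in mouse 1 was not tested. With the corrected table the log2 ratio of Cox8c to Cox8a rose by 8.91 in place of 8.67 on average.

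Cyct encodes testis cytochrome c and Cycs the somatic form, and their ratio had the smallest mean change of the pairs, 4.88 ± 0.48 (SD, n = 3). Cyct was at 77.4, 90.6 and 121.6 CPM at stage 1 and at 416.8, 442.5 and 403.0 CPM at stage 12 (log2 fold change 2.59 ± 0.22, adjusted p = 1.65e-13). Cycs was at 353.6, 266.4 and 265.5 CPM at stage 1 and at 84.9, 29.7 and 32.2 CPM at stage 12 (-2.14 ± 0.21, adjusted p = 6.88e-12), with mouse 1 above the other mice at both ends. Neither gene overlapped between the stages. Cyct made up 24.9% ± 6.74 of the UMIs of the pair at stage 1 and 89.8% ± 5.85 at stage 12, so Cycs kept a larger part of its pair's UMIs than Cox8a or Cox6b1 did, a difference that was not tested. The log2 ratio rose by 4.47, 5.41 and 4.76 in the 3 mice.

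The ratio rose in 3 of 3 mice for each of the 4 pairs, and the ratios do not depend on the scaling of the libraries. With 3 mice an exact two-sided exchange of the stages cannot give a p under 0.25, so no p is given for them. In mouse 3 the rise was found in the gate-sorted and in the index-sorted library alike, at 7.19 and 7.94 for Cox6b2 to Cox6b1, 11.95 and 9.66 for Cox7b2 to Cox7b, 7.59 and 8.92 for Cox8c to Cox8a, and 4.39 and 5.51 for Cyct to Cycs. A 3′ tag is counted per molecule whatever the transcript's length, but capture can differ between genes, so a share of 50% in a pair need not mean equal numbers of molecules.

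**Figure D2:**
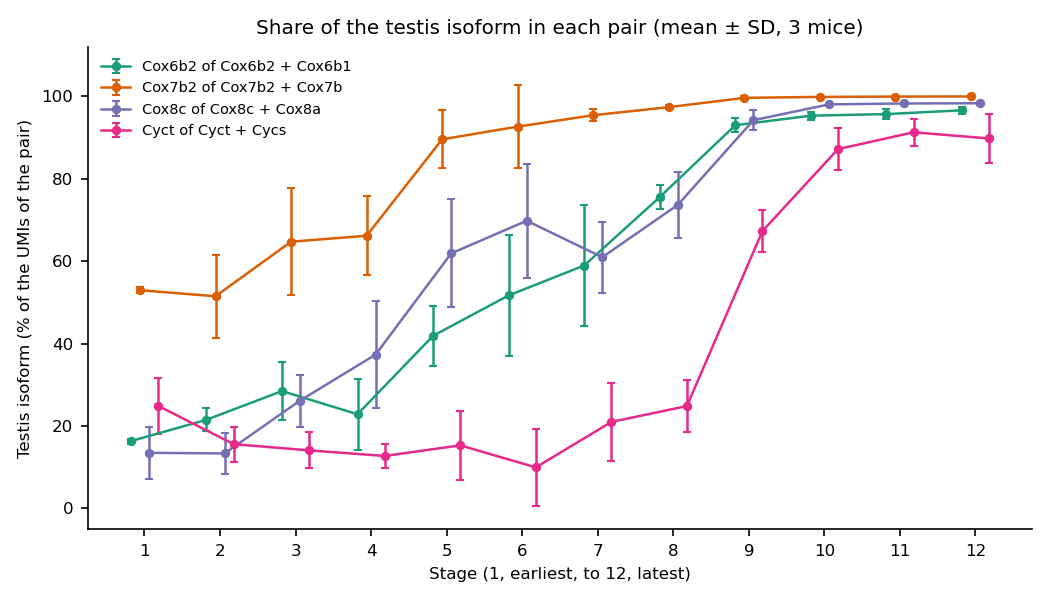
Percent of the UMIs of each pair that belonged to the testis isoform (y axis) at stages 1 to 12 (x axis), as mean ± SD over 3 mice. The oxidase pairs stand at 73.7% to 97.4% at stage 8 where Cyct is at 24.9%, and all 4 are at 89.8% or more at stage 12.

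In the main edgeR fit (TMM factors), the members were called at different steps between neighbouring stages, and per spike-in UMI the order differed in part, as given below. Among the general isoforms, Cox8a fell between stages 2 and 3 (log2 fold change -0.79 ± 0.15), between stages 3 and 4 (-0.74 ± 0.17) and between stages 4 and 5 (-1.07 ± 0.22). Cox6b1 was called on this scale between stages 4 and 5 alone (-1.32 ± 0.18), from 233.7, 334.4 and 270.0 CPM to 86.9, 115.4 and 113.9 CPM in mice 1, 2 and 3. Cox7b fell between stages 1 and 2 (-0.78 ± 0.28) and between stages 4 and 5 (-2.31 ± 0.50), and again between stages 8 and 9, where only 18 and 4 UMIs were left. On this scale Cycs was not called at any of these early steps, and fell between stages 8 and 9 (-0.54 ± 0.20) and between stages 9 and 10 (-1.26 ± 0.21). Its level was 295.2 ± 50.6 CPM (SD, n = 3) in stage 1, 424.5 ± 36.3 in stage 6 and 308.5 ± 55.7 in stage 8.

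On the same scale, the rises of the testis isoforms were called mostly at later steps. Cox7b2 was called between stages 6 and 7 (0.77 ± 0.22), 7 and 8 (0.96 ± 0.16) and 8 and 9 (0.84 ± 0.14), after it was called lower at stage 2 (-0.76 ± 0.17) and higher at stage 3 (0.65 ± 0.18). Per spike-in UMI Cox7b2 was not called at stage 3, with a value of -0.27 (adjusted p = 0.325). Cox6b2 rose between stages 7 and 8 (1.2 ± 0.21) and 8 and 9 (1.91 ± 0.16). Cox8c rose between stages 8 and 9 (2.16 ± 0.21) and 9 and 10 (1.14 ± 0.18), and Cyct between stages 8 and 9 (2.19 ± 0.23). The step to stage 9 thus held the calls of all 4 testis isoforms, and it is the stage at which the X-linked share had dropped. Cox6b2 was also called between stages 1 and 2 (0.53 ± 0.20), with an adjusted p of 0.0484, a call that was lost with median-ratio factors (0.45).

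At the step from stage 4 to 5 the 5 members called were all lower (Cox6b1, Cox7b, Cox8a, Cox4i1 and Cox7a2), and 26.4% of all genes were called in either direction. Stage 5 also held the Sertoli marker RNA given above, whose part in these falls was not tested. At the step from stage 8 to 9, 7 members were called (Cox6b2, Cox7b2, Cox8c, Cyct and Cox4i1 higher, Cox7b and Cycs lower), against 29.7% of all genes. The other steps held 3 members of the 10 at stage 2 (27.4% of all genes), 2 at stage 3 (14.8%), 1 at stage 4 (2.4%), 1 at stage 6 (4.82%), 2 at stage 7 (13.4%), 3 at stage 8 (16.7%), 3 at stage 10 (25.9%), and none at stage 11 (1.51%) or stage 12 (5.32%). Per spike-in UMI, the median of all genes moved by -0.93 on entry to stage 3, by 0.66 to stage 8, by 1.12 to stage 9 and by 1.08 to stage 10, and 19 of the 27 calls were the same, 7 were lost, 1 was opposite and 18 were added. Of the added calls 7 were at stage 3, all lower, namely Cox6b1 (-1.12), Cox7b (-1), Cyct (-0.92), Cox4i1 (-0.91), Cox7a2 (-0.91), Cycs (-0.75) and Cox6b2 (-0.58). Cycs (adjusted p = 0.00255) and Cox6b1 (adjusted p = 7.29e-06) were thus called lower per spike-in UMI before stage 4. The other 11 added calls were all higher, at stages 8 to 10, among them Cox6b1 at stage 8 (0.98), stage 9 (0.86) and stage 10 (0.68), Cox8a at stage 10 (0.61), Cox8c at stage 8 (0.95), and Cox6b2 (1.34), Cox7b2 (1.32) and Cyct (1.5) at stage 10. Cycs was called higher at stage 9 (0.54, adjusted p = 0.0318) and was not called at stage 10 (-0.24), so its falls there were relative to the other RNA of the wells. The rises of Cox7b2 (0.48) and Cox4i1 (0.31) at stage 7, that of Cox6b2 at stage 2 (0.54), and the falls of Cox7b at stage 2 (-0.76) and stage 9 (-1.61) were not called.

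Between these falls and rises the oxidase pairs passed through a low sum. Cox6b1 and Cox6b2 together started from 353.2 ± 13.7 CPM (SD, n = 3), stood at 183.3 ± 36.5 in stage 5 and 173.7 ± 29.8 in stage 7, and reached 889.0 ± 87.1 in stage 9. For Cox8a and Cox8c the sum was 616.3 ± 44.1 CPM to begin with, 207.5 ± 70.6 in stage 6 and 1592 ± 225 in stage 10. Cox7b and Cox7b2 together were at 191.5 ± 22.1 CPM in stage 1 and were low both in stage 2 (107.5 ± 7.34) and in stage 5 (112.4 ± 11.8), with 168.4 ± 14.6 in stage 4 between. In these 3 pairs the mice did not overlap between stage 1 and the low stages named. Cycs and Cyct showed no such dip in CPM, with 391.7 ± 37.2 in stage 1, 438.0 ± 78.2 in stage 5, 510.6 ± 30.3 in stage 7 and 627.8 ± 20 in stage 9. Per spike-in UMI, on the log2 scale relative to stage 1, the sum in stage 7 stood at -1.61 for Cycs and Cyct, -1.62 for the Cox7b pair, -3.03 for the Cox6b pair and -3.30 for the Cox8 pair, so on that scale all 4 pairs were low there. The difference between the pairs was not tested.

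Cox7b, being X-linked, was set against the other RNA of its chromosome. X-linked genes gave 2.45% of UMIs in stage 1, 2.78% in stage 4, 2.92% in stage 5 and 3.17% in stage 7, and 0.348% in stage 9. For every 10000 X-linked UMIs, Cox7b gave 37.0 ± 5.68 in stage 1, 20.2 ± 3.62 in stage 4, 3.77 ± 2.23 in stage 5 and 3.61 ± 1.36 in stage 7 (SD, n = 3), the last 2 from 9 and 10 Cox7b UMIs in all. The autosomal Cox6b1 and Cox8a were also called lower at stage 5. The cause of the fall of Cox7b was not tested.

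Within single wells, the isoforms were counted after each well was thinned to 3000 UMIs. This left out 30 of 117 wells as too shallow at stage 7 and 0 to 7 at each other stage. At stage 1, 10% of 70 wells held UMIs of both Cox6b2 and Cox6b1, 42.9% of Cox6b1 alone and 4.29% of Cox6b2 alone. At stage 12, 82.7% of 81 wells held Cox6b2 alone, 8.64% both and 1.23% Cox6b1 alone. Cox8a was found alone in 61.4% of wells at stage 1, and Cox8c alone in 5.71% there and in 93.8% at stage 12. Cyct and Cycs were found together most often at stage 9, in 31.0% of 100 wells, where 39.0% held Cyct alone and 19.0% Cycs alone. At the same stage 15% held both Cox6b isoforms, 14.0% both Cox8 isoforms and 1.0% both Cox7b isoforms. Without thinning, 84.6% of the stage 9 wells held both Cyct and Cycs, so at full depth most wells of that stage carried both cytochrome c RNAs. At stage 12, where wells were deepest, 91.4% held both without thinning. Thinned shares near the level of 1 UMI are descriptions of this depth and not of absence.

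**Figure D3:**
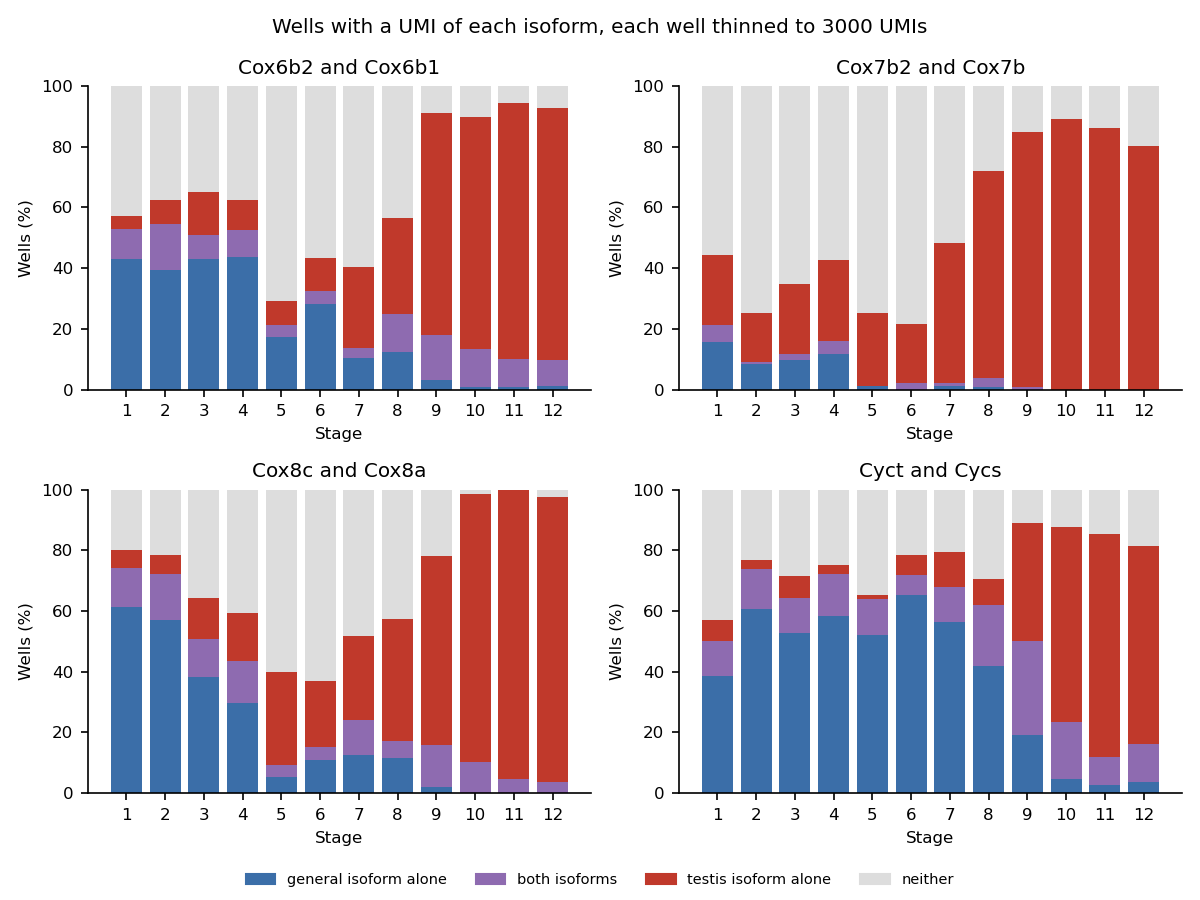
Percent of wells (y axis) at each stage (x axis) with at least 1 UMI of the general isoform alone, of both isoforms, of the testis isoform alone or of neither, after thinning each well to 3000 UMIs and pooling 3 mice. At stage 9 wells with both are 31.0% for Cyct and Cycs and 1.0% for Cox7b2 and Cox7b.

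The low levels of the testis isoforms at stage 1 were compared with wells that held little RNA. In the 472 wells under 1000 UMIs, the testis isoforms stood at 4.66% to 34.5% of their stage 1 level per spike-in UMI in the same mouse, and the general isoforms at 0 to 2.88%. Against stage 12, the testis isoforms in these wells stood at 0.19% to 1.05%. At stage 1 the CPM of Cox6b2 was 7.27% of its stage 12 value, of Cox7b2 15.3%, of Cox8c 5.83% and of Cyct 22.9%, beside a median of 4.76% (0.742% to 34.1%) for the 12 pachytene markers. How much of the stage 1 level came from RNA of other cells was not tested.

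Cox4i1 and Cox7a2 have no testis partner in the set. Cox4i1 encodes a form of subunit 4, through which the enzyme responds to ATP, and Cox7a2 encodes a small subunit that is found in most tissues. Cox7a2 was at 193.6, 203.2 and 169.2 CPM at stage 1 and at 363.9, 403.2 and 347.7 CPM at stage 12, without overlap (log2 fold change 1.45 ± 0.15, adjusted p = 2.16e-11). It was lower at stage 5 than at stage 4 (-0.61 ± 0.18). Cox4i1 was at 295.5, 818.4 and 779.0 CPM at stage 1 and at 341.1, 709.9 and 742.6 CPM at stage 12. Mouse 1 was below the other mice at both ends, and the stages overlapped. The fitted rise of 0.45 ± 0.12 (adjusted p = 0.000639) rested on the scaling: with UMI totals alone it was -0.01 (adjusted p = 0.948), and it was not called with median-ratio factors (0.14, adjusted p = 0.233), without mouse 1 (0.25, adjusted p = 0.089) or without mouse 3 (0.22, adjusted p = 0.231). Within its course Cox4i1 fell between stages 4 and 5 (-1.05 ± 0.13) and 5 and 6 (-0.84 ± 0.18), and rose between stages 6 and 7 (0.61 ± 0.19), 7 and 8 (0.81 ± 0.14), 8 and 9 (0.59 ± 0.12) and 9 and 10 (0.35 ± 0.12). At stage 6 it was at its lowest, 160.5 ± 70.8 CPM (SD, n = 3), so that a subunit with no switch in the set shared the low level of the oxidase pairs.

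**Figure D4:**
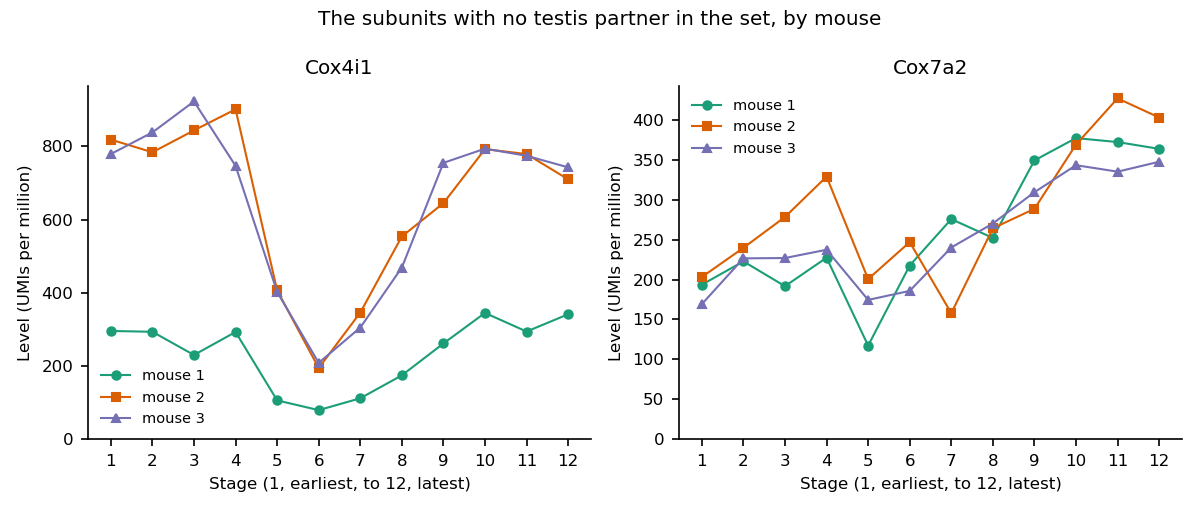
Levels in CPM (y axis, linear from 0) of Cox4i1 and Cox7a2 at stages 1 to 12 (x axis), with 1 line per mouse. Cox4i1 is lowest at stage 6 in each mouse and lower in mouse 1 throughout, and Cox7a2 reaches 347.7 to 403.2 CPM at stage 12.

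Per spike-in UMI, which follows the amount in a well, the testis isoforms rose by 5.92 ± 0.23 (Cox8c), 5.49 ± 0.43 (Cox6b2), 4.42 ± 0.41 (Cox7b2) and 3.85 ± 0.15 (Cyct) on the log2 scale from stage 1 to stage 12 (mean ± SD of 3 mice). The general isoforms fell on this scale too, with -2.77 ± 0.47 for Cox8a, -1.74 ± 0.31 for Cox6b1 and -1.05 ± 0.64 for Cycs. Cox7a2 rose by 2.69 ± 0.41 and Cox4i1 by 1.68 ± 0.42. Each of these directions was seen in 3 of 3 mice and was called in the edgeR fit scaled by spike-in UMIs.

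The other nuclear subunits of complex IV had a median log2 fold change of 0.10, over 7 that were tested among 10 with counts. Cox5a (1.14 ± 0.14), Cox6c (1.01 ± 0.11) and Cox5b (0.35 ± 0.12) were called higher, and Ndufa4, a subunit once assigned to complex I, lower (-2.31 ± 0.18). Cox6a1, Cox7c and Cox7a2l were not called, with values of 0.10, -0.04 and -0.05. Under UMI totals alone 2 of the 7 were called higher and 4 lower, and per spike-in UMI 6 higher and 1 lower, with Ndufa4 lower on each scale. Of all 11347 genes tested, 3368 were called higher and 5088 lower with UMI totals alone, and 7101 and 2240 per spike-in UMI. The 3 mitochondrially encoded subunits were lower in the main edgeR fit, at -0.83 ± 0.15 for mtCo1, -0.79 ± 0.13 for mtCo3 and -0.64 ± 0.17 for mtCo2. In the same order they were lower with UMI totals alone (-1.31, -1.26 and -1.11) and higher per spike-in UMI, at 0.40, 0.45 and 0.59.

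**Figure D5:**
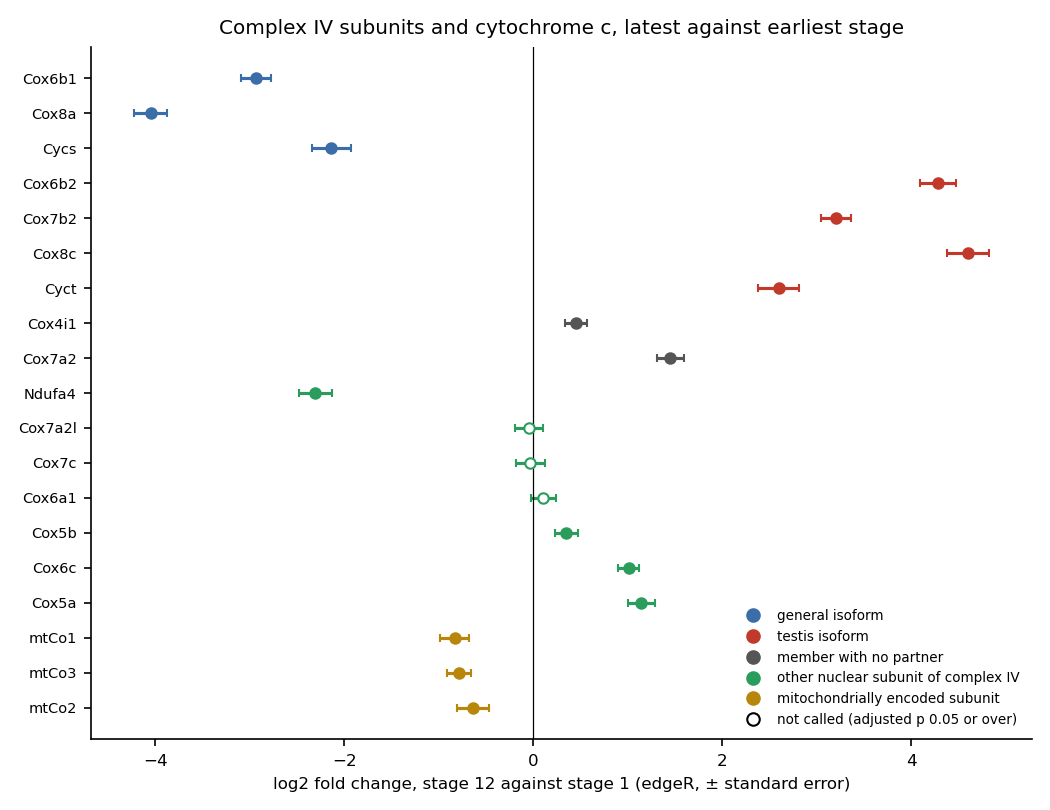
Fitted log2 fold change of stage 12 against stage 1 (x axis) for the members and the other tested subunits of complex IV (y axis). Bars are ± SE, derived from the edgeR F statistic, and open symbols mark changes that were not called. Cox7b, at 0 at stage 12, is not drawn. The 4 testis isoforms lie between 2.59 and 4.60 and the other nuclear subunits between -2.31 and 1.14, and the values shift with the scaling.

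Genes that assemble the enzyme or work beside it were taken from lists of their own. Of 22 tested assembly factors of complex IV, 12 were called higher and 2 lower (median 0.81), among them Coa4 (3.26 ± 0.45) and Pet100 (2.70 ± 0.23) higher and Cox18 (-0.78 ± 0.24), which inserts a core subunit into the membrane, and Lrpprc (-0.73 ± 0.13), which keeps mitochondrial mRNAs stable, lower. With UMI totals alone these counts were 8 and 6, and per spike-in UMI 20 and 0, where Cox18 was not called (0.49) and Lrpprc was higher (0.51). The haem lyase Hccs, an X-linked gene whose product attaches haem to cytochrome c, was lower (-4.79 ± 0.29), as were Apaf1 (-1.67 ± 0.34) and Casp9 (-1.07 ± 0.29), which form the apoptosome with cytochrome c, while Diablo, which is released from mitochondria in apoptosis, was higher (2.87 ± 0.15). Per spike-in UMI Hccs stayed lower (-3.50), and Apaf1 (-0.37) and Casp9 (0.24) were not called. In complex III, which reduces cytochrome c, 6 of 9 subunits were called higher and 0 lower (median 1.04), led by Uqcrq (2.39 ± 0.14). In complex I 27 of 36 were higher and 2 lower (median 0.87), with Ndufc1 (2.48 ± 0.14) and Ndufb11 (-6.36 ± 0.37), an X-linked subunit, at the ends. Complex II had 3 of 4 higher, and complex V 6 higher and 4 lower of 16, from Atp5j (1.26 ± 0.13) to Atp5g2 (-1.43 ± 0.16). With UMI totals alone complex I had 18 higher and 6 lower, complex II none in either direction (4 higher per spike-in UMI), and complex V 3 and 9. Complex III then had 5 higher and 2 lower. Per spike-in UMI 34 subunits of complex I, 9 of complex III and 14 of complex V were called higher, and Atp5g2 was not called (-0.19). Of all 11347 genes tested, 39% were called higher and 36.3% lower in the main edgeR fit. With UMI totals alone 3368 genes were called higher and 5088 lower, and per spike-in UMI 7101 and 2240. The counts of each list are to be read beside these.

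Other testis isoforms of energy metabolism were Ldhc (5.18 ± 0.27), Pgk2 (5.18 ± 0.58) and Pdha2 (3.97 ± 0.19), called higher, which make lactate dehydrogenase, phosphoglycerate kinase and pyruvate dehydrogenase of germ cells. Slc25a31, the testis ADP/ATP carrier, was lower in the main edgeR fit (-0.71 ± 0.14) and with UMI totals alone (-1.18), and higher per spike-in UMI (0.53). Hk1, counted here as a whole gene and not by isoform, was not called (0.13) but was higher per spike-in UMI (1.39). Ldhc, Pgk2 and Mybl1 are also on the list of pachytene markers. Among regulators, Mybl1 (3.95 ± 0.44), Crem (3.51 ± 0.23), Ppargc1a (2.89 ± 0.70) and Yy1 (0.91 ± 0.14) were called higher and Tfam (-2.17 ± 0.26), which packs and transcribes mitochondrial DNA, and Gabpa (-1.14 ± 0.23) lower. Nrf1 itself was not called (-0.06), and was lower with UMI totals alone (-0.52) and higher per spike-in UMI (1.27). Per spike-in UMI Tfam stayed lower (-0.87) and Gabpa was not called (0.13). These are levels of RNA, and no binding was measured.

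The genes whose log2 CPM followed a testis isoform most closely over the 36 sums, centred within each mouse, are named by a rule and given with no test, since the sums share mice and depth. For Cox8c they were Piwil1 (r = 0.99), a protein of pachytene piRNA pathways, Mroh4 (0.989), Adam2 (0.988), 1700042G15Rik (0.987) and Meig1 (0.986). For Cox6b2 they were Rsph1 (0.976), 1700029M20Rik (0.975), Wfdc15a (0.972), Mif4gd (0.972) and Dak (0.969). For Cox7b2 they were Ccdc104 (0.983), Rsph1 (0.975), Dync1i2 (0.974), Sugp2 (0.973) and Pdha2 (0.973). For Cyct they were Tchp (0.966), Khdrbs3 (0.957), Spata24 (0.955), Tdrd5 (0.952) and Sbds (0.946). Among the members, Cox6b2 and Cox8c were the closest pair (r = 0.967), followed by Cox6b2 and Cox7b2 (0.948), while Cyct was at 0.838 with Cox6b2, 0.821 with Cox8c and 0.789 with Cox7b2. Of the general isoforms, Cox6b1 and Cox8a were closest (0.897), and Cycs was at 0.715 with Cox7b, 0.666 with Cox6b1 and 0.586 with Cox8a.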

How the data were processed

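SORT-Seq counts of single sorted wells from 3 mice were used. The authors deposited UMI counts, read counts and a transcripts table. The authors' transcripts are estimated counts that match UMI counts corrected for collisions, as deposited, and were rounded here to whole numbers. This table has the columns of mouse 1 in another order, so these were matched by profile (lowest correlation 0.973). Per the submitters' processing notes, BWA 0.7.10 and mm10 were used; the counting tool and the annotation are not given in the sources used here. The columns of mouse 1 do not separate its 8 libraries. Total UMIs were 16682671, 5866174 and 18032562 in mice 1, 2 and 3.

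Wells with at least 1000 UMIs (1448 of 1920) were staged with 1500 variable genes of odd autosomes, Seurat 5.3.0 anchors and scanpy 1.11.5 (15 components, 15 neighbours, Leiden resolution 1.0). After clustering, 13 wells with 0.25% or more of UMIs from Prm1, Prm2, Tnp1 and Tnp2 were left out, a choice made after seeing the data. A stage needed 10 wells in each of at least 2 mice, no lead by somatic markers and a median depth of at least 0.333 of that of all kept wells. This left out 3 shallow clusters. Wells are labelled as single cells and no doublet caller was run, and well numbers recur between plates by design. UMIs were totalled over autosomes, X and Y without Rn45s.

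Sums per mouse and stage were tested with edgeR 4.0.16 (quasi-likelihood, TMM, filterByExpr, mouse as a block since the same animals give every stage, Benjamini-Hochberg over all genes), after a test on simulated data. The SE of a log2 fold change was taken as its absolute value divided by the square root of its F statistic. Deviations of stage 1 and stage 12 sums correlated at 0.751, 0.402 and 0.622 within mice 1, 2 and 3, and mouse 3 at stage 1 also correlated at 0.421 with mouse 2 at stage 12. DESeq2 1.42.0, other scalings, tables, filters and stagings were alternatives. Named are all members, up to 4 called genes per list with the highest and lowest fold changes, and 5 genes per testis isoform by correlation (prior count 1). Cox6a1, Cox7c, Cox7a2l, Hk1, Nrf1, Ppargc1a, Yy1 and Id4 were named after their values were seen. The members and lists were chosen with earlier results of these data known. Sequences are from RefSeq and GENCODE.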

Additional observations from a re-analysis of the deposited data

How the results depend on the processing

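Of 17 alternatives to the edgeR test, 2 of them (UMI totals alone and keeping the wells with spermatid transcripts) added after seeing the data, all kept the direction and call of 9 members, and Cox4i1 kept its call in 11. Cox4i1 was -0.01 with UMI totals alone, and was not called with median-ratio factors (0.14), DESeq2 (0.15), no replicate block for the mice (0.40, adjusted p = 0.584), or without mouse 1 or 3; the cause was not tested. No other member lost its call without the block, and the counts were 6 or 5 members higher and 4 lower in every alternative. The median of all genes was 0.08 with TMM, -0.24 with median-ratio factors, -0.38 with UMI totals and 1.35 per spike-in UMI. Calls were 51.7% higher with TMM, 43.6% with median-ratio factors, 43.8% with DESeq2, 39.8% with UMI totals and 76.0% per spike-in UMI, where 7101 genes were called higher and 2240 lower against 4423 and 4124. The ratio changes moved by more than 1 SD with reads in place of UMIs, to 8.28 for Cox6b2 to Cox6b1, 12.88 for Cox7b2 to Cox7b, 10.01 for Cox8c to Cox8a and 6.14 for Cyct to Cycs, and for Cox7b2 to Cox7b without alignment (10.04, 2 mice). Without thinning the stage 9 wells with both isoforms came to 64.4% (Cox6b2), 2.88% (Cox7b2), 44.2% (Cox8c) and 84.6% (Cyct). Leaving out each mouse gave ratio changes of 7.04 to 7.36, 11.11 to 12.09, 8.31 to 8.99 and 4.62 to 5.09. Limits are 13 wells in the smallest sum, few Cox7b UMIs from stage 5 on, and a single mouse by CEL-Seq1.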
